A study of Mus musculus with 16 samples.

Results

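A set of 10 genes of the tight junction, Cldn1, Cldn2, Cldn3, Cldn4, Cldn6, Cldn7, Cldn8, Cldn12, Cldn14 and Ocln, was followed in kidneys of mouse pups that lack the aquaporin gene Aqp11. Its members were chosen by name as claudins of tubule segments, with occludin, when earlier results of these data were known. They are 10 of the 18193 genes named on the array. Each kidney was hybridised to its own Affymetrix mouse whole-genome array at 7 days of age. The knockout group (Aqp11-/-) held 9 pups, 5 male and 4 female, and the wild-type group (Aqp11+/+) held 7 littermates, 3 male and 4 female. Both groups came from matings of heterozygous Aqp11+/- parents of a line made in the 129/SvEvBrd strain and then crossed repeatedly to C57/BL6, and the labels give the strain of all pups as C57BL/6J. The loss of Aqp11 is present throughout the animal rather than limited to a cell type, and RNA was taken from whole kidney. Fewer cells of a type and less RNA per cell therefore cannot be told apart in any result below.

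Tight junctions close the space between epithelial cells, and claudins, small membrane proteins that span the membrane several times, set which ions can pass through it. Along the nephron each segment uses its own set, so that the proximal tubule is leaky to cations while the collecting duct is tight. Cldn2 encodes the cation pore of the proximal tubule, where Cldn12 is also made. Cldn14 acts in the thick ascending limb, Cldn3, Cldn4, Cldn7 and Cldn8 belong mainly to the distal nephron and collecting duct, Cldn1 is made in the parietal epithelium of Bowman's capsule, and Cldn6 belongs mainly to embryonic and newborn epithelia. Ocln encodes occludin, a junction protein of another family.

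The sequences upstream of 4 genes are shown because Cldn4, Cldn3 and Cldn1 were the members whose knockout and wild-type arrays did not overlap and Cldn2 was the member that fell. Each is the 250 bases before the transcript start, 5′ to 3′ on the gene's strand, from RefSeq on GRCm38.p6: Cldn4 at chr5:134946935-134947184 (minus strand), Cldn3 at chr5:134985964-134986213 (plus strand), Cldn1 at chr16:26371840-26372089 (minus strand) and Cldn2 at chrX:139800558-139800807 (plus strand). Capitals mark matches to an AP-1 site (TGANTCA), a Snail-type E-box (CAGGTG), an HNF1 half-site (GTTAAT) or a TATA box (TATAAA) on either strand.
Cldn4: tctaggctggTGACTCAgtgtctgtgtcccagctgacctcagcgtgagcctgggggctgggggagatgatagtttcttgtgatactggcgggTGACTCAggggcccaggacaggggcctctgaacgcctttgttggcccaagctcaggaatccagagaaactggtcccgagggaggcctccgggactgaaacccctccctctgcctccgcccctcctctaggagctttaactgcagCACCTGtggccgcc
Cldn3: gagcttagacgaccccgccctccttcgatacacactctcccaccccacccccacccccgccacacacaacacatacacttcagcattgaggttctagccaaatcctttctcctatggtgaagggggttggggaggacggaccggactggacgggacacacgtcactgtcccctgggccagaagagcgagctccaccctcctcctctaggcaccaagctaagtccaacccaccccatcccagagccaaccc
Cldn1: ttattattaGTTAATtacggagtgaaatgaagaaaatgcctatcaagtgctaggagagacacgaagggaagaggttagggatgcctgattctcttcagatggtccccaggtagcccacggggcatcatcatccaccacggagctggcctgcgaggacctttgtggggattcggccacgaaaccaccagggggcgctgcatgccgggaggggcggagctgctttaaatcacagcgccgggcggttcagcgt
Cldn2: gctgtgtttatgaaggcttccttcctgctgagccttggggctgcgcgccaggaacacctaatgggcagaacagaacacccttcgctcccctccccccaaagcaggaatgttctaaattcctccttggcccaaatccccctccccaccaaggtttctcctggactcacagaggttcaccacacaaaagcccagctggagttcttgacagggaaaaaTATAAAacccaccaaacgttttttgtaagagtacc

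The Cldn4 window held 2 AP-1 matches, which begin 240 and 158 bases before the start, and 1 E-box match at 14 bases. AP-1 matches occur in 6.75% of the 32817 upstream windows of the same length, and 0.338% hold at least 2. The E-box occurs in 17.2% of windows. The Cldn1 window held an HNF1 half-site at 241 bases, a word found in 6.44% of windows, and the Cldn2 window a TATA box at 35 bases, found in 12.4%. The Cldn3 window held none of these 4 words. An Sp and Klf box (GGGCGG, in 32.7% of windows) and a nuclear receptor half-site (AGGTCA, in 14% of windows) were searched as well and are not capitalised. The first was present in the windows of Cldn4, Cldn3 and Cldn1, and the second in that of Cldn4. No matches overlapped within these 4 windows. Of the 10 genes, 9 had at least 1 window, 15 windows in all, and Cldn4 was the 1 gene among the 9 with an AP-1 match. Counted by window, 1 of the 15 held an AP-1 match, a share near the 6.75% of all windows. These are matches of letters, and no binding was measured.

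The targeted gene checked the labels: Aqp11 averaged 2.95 ± 0.33 (SD, n = 9) in log2 signal over the knockout arrays and 7.87 ± 0.16 (SD, n = 7) over the wild-type arrays, at least 30.3-fold lower, with 7 of the 9 knockout arrays at the floor set on low signals. Here log2 signal is the deposited intensity after quantile normalization across arrays, and a change is knockout minus wild type on that scale. Signal depends on the probe set, so levels are set against each other only within a probe set. The trimmed mean intensity was 169 ± 44.9 (SD, n = 9) on knockout arrays and 165 ± 33.4 (SD, n = 7) on wild-type arrays (exact permutation p = 0.85, two-sided). In this range, 8 arrays formed a brighter group (4 knockout, 4 wild type) and 8 a dimmer one (5 knockout, 3 wild type). The 3′/5′ ratio of Gapdh, a sign of RNA integrity, was 0.801 ± 0.068 (SD, n = 9) in knockout and 0.790 ± 0.053 (SD, n = 7) in wild type (exact permutation p = 0.73, two-sided). All 13 proximal tubule, 7 thick ascending limb and 12 principal cell markers lay above the floor on all 16 arrays.

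Cldn3, Cldn4 and Cldn7 of the distal nephron, Cldn1 of the parietal epithelium and Cldn14 of the thick ascending limb rose in knockout kidneys, and Cldn2 of the proximal tubule fell. The segments are those given above for each gene, and the cells behind the signals were not measured. By the brightest probe set of each gene, 5 of the 10 genes rose (Cldn4, Cldn3, Cldn1, Cldn14 and Cldn7), 1 fell (Cldn2) and 4 did not pass the test (Cldn6, Cldn8, Cldn12 and Ocln). Among all 12499 genes tested, 8.44% rose and 7.3% fell at the same threshold, a limma p adjusted over all tested probe sets under 0.05. The median log2 change was 0.26 over the 10 genes and 0.003 over all genes. Because the members were chosen with earlier results of these data known, these counts describe the set and do not test it. Every knockout array lay above every wild-type array for 3 of the 10 (Cldn1, Cldn3 and Cldn4), as it did for 2.91% of all genes, and the reverse order, which no member had, was seen in 2.43%. Counted by probe set, the genes have 19, of which 17 were bright enough to test and 11 passed, 9 of them higher and 2 lower; of all 27377 probe sets tested, 11.7% passed. Of the 3195 that passed, 1700 were higher, against 375 of 573 with the intensities as deposited, where Cldn1, Cldn3 and Cldn4 were the 3 members called.

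**Figure D1:**
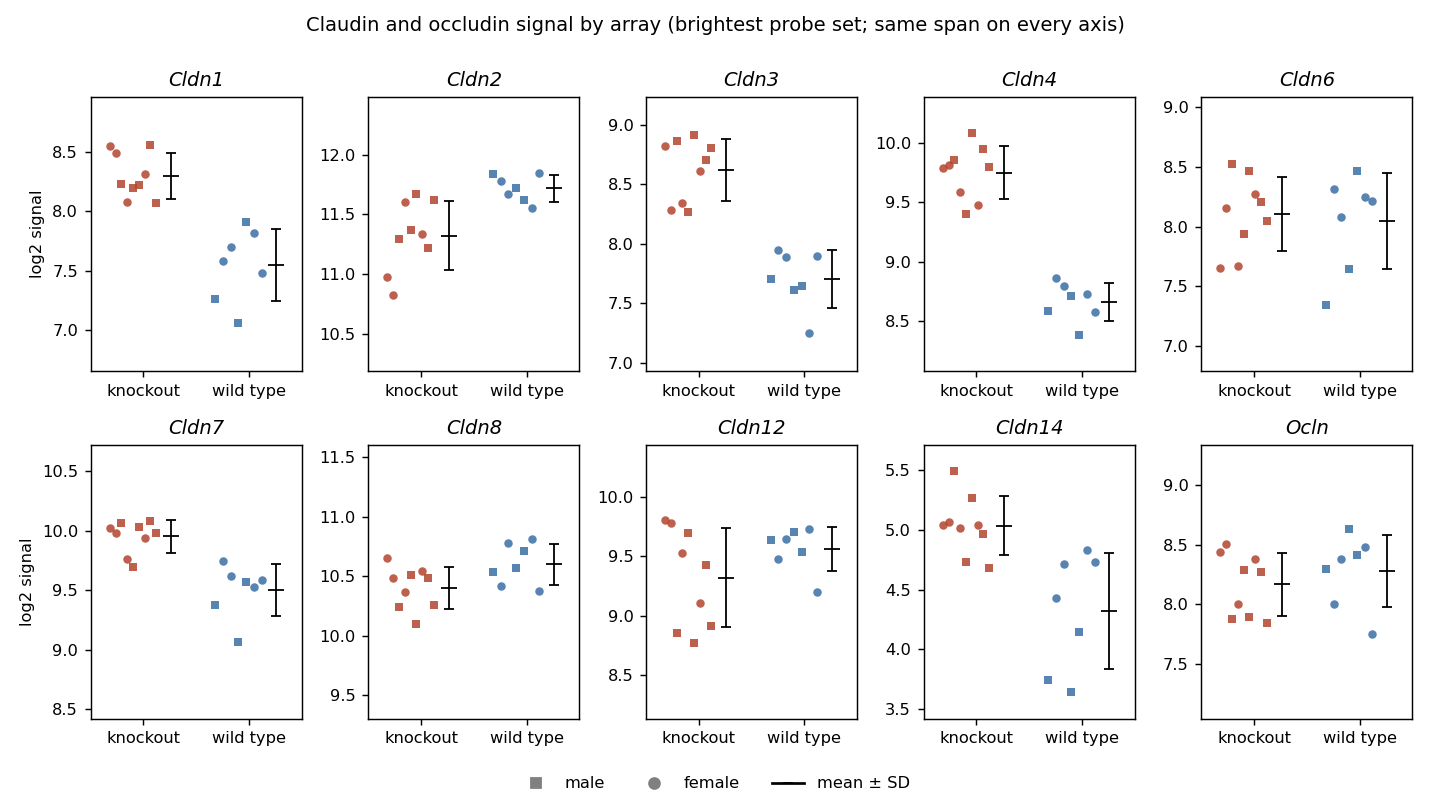
Log2 signal of the brightest probe set of each gene, 1 point per array, with knockout left of wild type, squares for males, circles for females, and the mean ± SD beside each group (n = 9 knockout, n = 7 wild type). The vertical axes start at different levels and span the same log2 range. For Cldn1, Cldn3 and Cldn4 the lowest knockout array lies above the highest wild-type array; for Cldn2 the knockout arrays spread downward from near the wild-type range.

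Cldn4, which encodes a claudin of the collecting duct tied to chloride passage, had the largest change among the brightest probe sets. Its log2 signals in the 9 knockout kidneys had a lowest value of 9.40, a median of 9.79 and a highest of 10.08, against 8.38, 8.71 and 8.86 in the 7 wild-type kidneys. The 2 groups did not overlap, and the gap between the lowest knockout and the highest wild-type array exceeded the SD of either group (0.22 in knockout and 0.16 in wild type). The change was 1.09 (SE 0.09, 95% interval 0.89 to 1.28), or 2.12-fold (adjusted p = 8.78e-08). It was 1.25 in males and 0.93 in females, and 0.91 among the brighter arrays and 1.27 among the dimmer ones. The call held in all 37 alternative settings.

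Cldn3 lies next to Cldn4 on chromosome 5, with no protein-coding gene between them in the RefSeq order, and encodes a sealing claudin. It was measured by 4 probe sets, and in each of them the knockout and wild-type arrays did not overlap. The brightest had a lowest log2 signal of 8.26, a median of 8.70 and a highest of 8.91 in knockout kidneys, against 7.25, 7.70 and 7.95 in wild-type kidneys. Its change was 0.92 (SE 0.12), or 1.89-fold (adjusted p = 1.63e-05). The other 3 probe sets changed by 0.94, 0.89 and 1.08 (adjusted p = 4.16e-06, 1e-05 and 2.25e-05), so that the 4 estimates lay within each other's 95% intervals. The change was larger among the dimmer arrays (1.18) than among the brighter ones (0.64), a difference that was not tested, and the call held in all 37 alternative settings.

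Cldn7, a claudin of distal tubule and collecting duct that also lies along the lateral membrane, rose by less. Its log2 signals had a lowest value of 9.69, a median of 9.98 and a highest of 10.08 in knockout kidneys, against 9.07, 9.57 and 9.74 in wild-type kidneys, and the lowest knockout array lay inside the wild-type range. The change was 0.45 (SE 0.08), or 1.37-fold (adjusted p = 9.62e-04). It was no longer called with the intensities as deposited (0.47, adjusted p = 0.291), in females alone (0.31, adjusted p = 0.111) or among the brighter arrays alone (0.41, adjusted p = 0.102).

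Cldn8, the remaining collecting duct claudin, did not rise with them. It had a lowest log2 signal of 10.10, a median of 10.48 and a highest of 10.65 in knockout kidneys, against 10.37, 10.57 and 10.81 in wild-type kidneys. The groups overlapped. The change was -0.19 (SE 0.08, 95% interval -0.37 to -0.02), with an unadjusted p of 0.0286 and an adjusted p of 0.15 (limma).

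Markers of the cells of the collecting duct and of the urothelium did not move in 1 direction. Of 12 principal cell markers of the collecting duct, 4 rose, 1 fell and 7 did not pass, with a median change of 0.07. Aqp2, the water channel that vasopressin controls, rose by 0.90, the potassium channel subunit gene Kcne1 by 0.91, and the keratin genes Krt8 and Krt18 by 0.52 and 0.57, while Avpr2, the vasopressin receptor gene, fell by 0.48. Krt8 and Krt18 also stand in the list of injured tubule markers. The summed signal of the 12 markers ranged between 8991 and 11648 in knockout kidneys and between 7109 and 9537 in wild-type kidneys. Markers of the intercalated cells of the same duct went the other way, with 5 of 9 lower, none higher and a median change of -0.46. They were the proton pump gene Atp6v1b1 (-0.40), the anion exchanger genes Slc4a1 (-0.88) and Slc26a4 (-1.08) and the ammonia transporter genes Rhbg (-0.72) and Rhcg (-0.62), and the summed signal ranged between 1992 and 3170 in knockout kidneys and between 3368 and 4013 in wild-type kidneys. Of 6 tested urothelium markers, Krt20, which is also on the injured tubule list, rose, Upk3b fell and 4 did not pass. No marker of these lists lay at the floor on every array. The part of these cells in the claudin changes was not tested.

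Cldn1 rose in both of its measurable probe sets. In the brighter one, the lowest, median and highest log2 signals were 8.07, 8.23 and 8.55 in knockout kidneys, against 7.06, 7.58 and 7.91 in wild-type kidneys. The groups did not overlap, and the change was 0.75 (SE 0.12), or 1.68-fold (adjusted p = 1.28e-04). The other tested probe set changed by 0.74 (adjusted p = 2.99e-05), again without overlap. The remaining 2 probe sets annotated to Cldn1 were too dim to test: one lay at the floor on all 16 arrays, and the other on 7 knockout and 5 wild-type arrays. The call held in all 37 alternative settings, with changes between 0.54 in the dimmer arrays and 0.93 in the brighter ones.

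Glomerular markers did not rise with Cldn1. Of 8 markers of podocytes and parietal epithelium, 4 fell (Clic5, Nphs1, Ptpro and Plce1), none rose and the median change was -0.24. Their summed signal ranged between 3886 and 4753 in knockout kidneys and between 4483 and 5394 in wild-type kidneys. Of 10 injured tubule markers, 8 rose and none fell, with a median change of 1.00. The injury markers Havcr1 and Lcn2 rose by 5.26 and 2.18, the first against a wild-type mean held up by the floor, and Cd44, a receptor for hyaluronan, rose by 1.94. Their summed signal ranged between 8196 and 10542 in knockout kidneys and between 4470 and 5702 in wild-type kidneys, without overlap. Of 12 macrophage markers 11 rose, led by Cd74, C1qa, Fcgr3 and C1qc, and their summed signal ranged between 5672 and 9196 in knockout kidneys and between 2205 and 4054 in wild-type kidneys. Of 8 fibroblast markers 3 rose (Fbln1, Col1a1 and Col1a2), of 8 endothelial markers 4 fell (Emcn, Ehd3, Pecam1 and Tek), of 4 distal convoluted tubule markers Slc12a3 fell, and of 9 cell cycle genes none passed. The part of these cells in the claudin changes was not tested.

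Cldn14 encodes a claudin of the thick ascending limb that restrains calcium and magnesium passage. Its log2 signal was low, with a lowest value of 4.68, a median of 5.04 and a highest of 5.49 in knockout kidneys, against 3.64, 4.43 and 4.83 in wild-type kidneys. The wild-type spread was wide, and the 3 lowest arrays, at 3.64, 3.74 and 4.15, were those of the 3 males. The change was 0.72 (SE 0.21), or 1.64-fold (adjusted p = 0.026). The call was lost with the intensities as deposited (adjusted p = 0.228), in females alone (0.37, adjusted p = 0.441), in the brighter (0.107) or dimmer arrays alone (0.363), and without any 1 of 4 arrays: wild type 1-1 (0.0653), 3-1 (0.064) or 4-1 (0.051), or knockout 2-4 (0.051). Of 7 thick ascending limb markers, 2 fell, the growth factor gene Egf (-1.91) and the chloride channel subunit gene Bsnd (-0.64), and none rose, with summed signals between 9704 and 13682 in knockout kidneys and between 9449 and 13590 in wild-type kidneys.

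Cldn2, the paracellular cation pore of the proximal tubule, was lower in knockout kidneys in both of its probe sets. In the brighter one, the log2 signals had a lowest value of 10.82, a median of 11.34 and a highest of 11.67 in knockout kidneys, against 11.55, 11.72 and 11.85 in wild-type kidneys. All 9 knockout arrays lay below the wild-type mean, the 3 highest of them reached into the wild-type range, and the SD was larger in knockout (0.29) than in wild type (0.11). The change was -0.40 (SE 0.10), 1.32-fold lower (adjusted p = 0.0134). In the other probe set it was -0.58 (SE 0.12), 1.49-fold lower (adjusted p = 0.00231). The brighter probe set was no longer called with the intensities as deposited (-0.42, adjusted p = 0.321), in males alone (-0.29, 0.121), in females alone (-0.53, 0.0911) or among the dimmer arrays alone (-0.24, 0.237).

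Other genes of the proximal tubule were lower too. Of 13 proximal tubule markers 12 fell, none rose and the median change was -0.72, larger in size than the change of Cldn2. Among them were Slc22a8, an organic anion transporter (-0.92), Slc7a13, an amino acid transporter (-1.55), Slc5a2, a glucose transporter (-2.07) and Slc13a3, a dicarboxylate transporter (-0.62). Their summed signal ranged between 13759 and 23730 in knockout kidneys and between 31762 and 38796 in wild-type kidneys. Their part in the Cldn2 change was not tested.

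After the mean of each genotype was taken out, the genes whose log2 signal was most like that of Cldn2 over the 16 arrays were Lrp2 (Pearson r = 0.973, Spearman rho = 0.971), Pdzk1 (r = 0.955, rho = 0.924) and Srr (r = 0.953, rho = 0.959), of 12498 genes ranked. Lrp2 encodes megalin, an endocytic receptor of the proximal tubule, Pdzk1 a scaffold of its brush border and Srr serine racemase. For Lrp2 the correlation was 0.983 within the knockout arrays and 0.933 within the wild-type arrays, and 0.957 over the 14 arrays left without knockout 2-3 and 1-2, which lay farthest out. The values share the array and its normalization, and the same deviations correlated with log2 array brightness at r = -0.409 for Cldn2 and -0.525 for Lrp2. Knockout 2-3 and 1-2 also had the lowest Gapdh 3′/5′ ratios of the 16 arrays, 0.706 and 0.736. With that ratio as a term in the fit, Cldn2 changed by -0.42 (adjusted p = 8.47e-04, limma). The part of RNA quality in the likeness was not tested. Because these genes were picked as the highest of all, no p is given. Lrp2 fell by 0.62 (adjusted p = 0.00164), Pdzk1 fell by 0.43 (adjusted p = 0.0116), and Srr changed by -0.31 without passing (adjusted p = 0.0972).

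**Figure D2:**
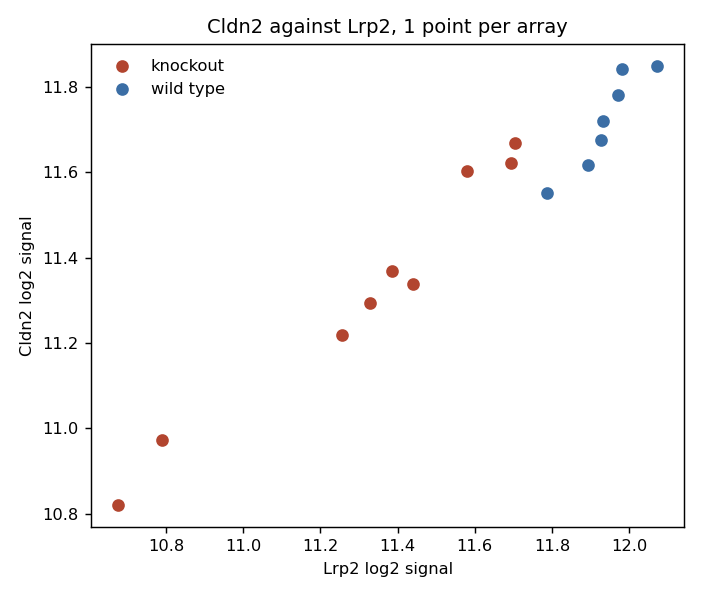
Log2 signal of Cldn2 against log2 signal of Lrp2, 1 point per array, 9 knockout and 7 wild type. Within each group Cldn2 is higher where Lrp2 is higher. All knockout arrays lie at lower Lrp2 than the wild-type arrays, the highest knockout arrays reach Cldn2 levels of the lowest wild-type arrays, and knockout 2-3 is lowest in Cldn2, at 10.82.

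The same ranking for Cldn4 gave lower values. Its nearest genes were Khnyn (r = 0.799, rho = 0.665), the transcriptional coactivator gene Cited4 (r = 0.792, rho = 0.782) and the histone acetyltransferase gene Kat2a (r = 0.773, rho = 0.744). Within the knockout and within the wild-type arrays, r was 0.910 and 0.429 for Khnyn, 0.785 and 0.868 for Cited4, and 0.740 and 0.876 for Kat2a. None of the 3 passed the test between genotypes (changes of -0.21, 0.17 and 0.16, adjusted p = 0.468, 0.748 and 0.269). Among the members themselves, the closest pairs were Cldn8 and Ocln (r = 0.822), Cldn12 and Ocln (r = 0.750) and Cldn8 and Cldn12 (r = 0.741), while the neighbours Cldn3 and Cldn4 reached 0.488. The lowest values were those of Cldn2 with Ocln (-0.692), Cldn8 (-0.685) and Cldn12 (-0.653). Deviations of Cldn12, Ocln and Cldn8 also followed log2 array brightness (r = 0.848, 0.560 and 0.522). The part of brightness in these pairs was not tested.

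Cldn12, Ocln and Cldn6 did not pass the test between genotypes. Cldn12, a claudin tied to calcium passage in the proximal tubule, had a lowest log2 signal of 8.77, a median of 9.42 and a highest of 9.80 in knockout kidneys, against 9.20, 9.64 and 9.73 in wild-type kidneys. The wild-type arrays lay inside the knockout range. The change was -0.24 (95% interval -0.55 to 0.07, adjusted p = 0.356), and in its other probe set -0.07 (adjusted p = 0.71). Its deviations from the genotype means followed log2 array brightness (r = 0.848 over 16 arrays), and its change was 0.09 among the brighter arrays and -0.47 among the dimmer ones. With the Gapdh ratio as a term in the fit it was called lower (-0.19, adjusted p = 0.0498).

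Ocln had a lowest log2 signal of 7.85, a median of 8.27 and a highest of 8.51 in knockout kidneys, against 7.75, 8.38 and 8.63 in wild-type kidneys, and the knockout arrays lay inside the wild-type range. The change was -0.11 (95% interval -0.38 to 0.15, adjusted p = 0.673). Its other probe set changed by -0.28 (SE 0.10, unadjusted p = 0.00899, adjusted p = 0.0681, limma). The deviations of Ocln and Cldn8 also followed array brightness (r = 0.560 and 0.522). Cldn6 had a lowest log2 signal of 7.65, a median of 8.16 and a highest of 8.53 in knockout kidneys, against 7.35, 8.21 and 8.46 in wild-type kidneys. Its change was 0.06 (95% interval -0.27 to 0.39, adjusted p = 0.876), and its deviations ran against array brightness (r = -0.634).

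**Figure D3:**
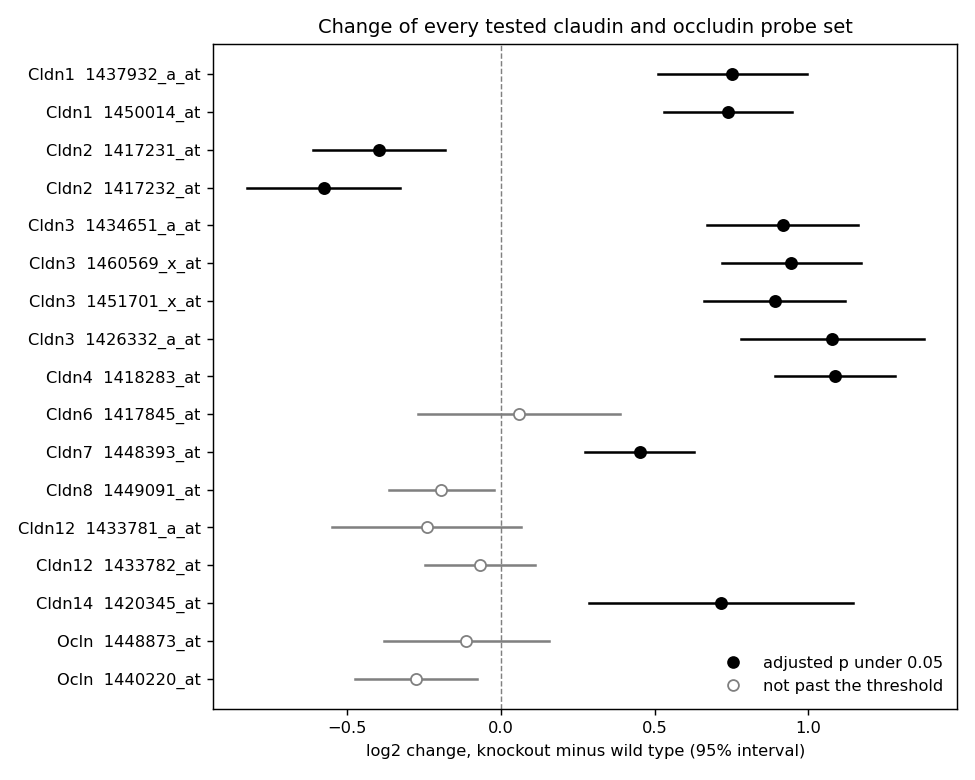
Log2 change, knockout minus wild type, with its 95% interval for each of the 17 tested probe sets, in rows by gene. Filled points passed an adjusted p of 0.05 and open points did not; the 4 Cldn3 and 2 Cldn1 probe sets lie to the right of 0 and both Cldn2 probe sets to the left.

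The genotype difference was also set against sex. No probe set passed a test of the interaction between genotype and sex (0%, 0 of 27377, limma), and 2790 had an unadjusted p under 0.05. By the brightest probe sets, Ocln, Cldn6, Cldn14 and Cldn7 were among these, with unadjusted limma p-values of 0.02, 0.0263, 0.033 and 0.0495 in that order and adjusted p-values of 0.488 or 0.489. The change in males and in females was -0.41 and 0.18 for Ocln, 0.42 and -0.28 for Cldn6, 1.19 and 0.37 for Cldn14, and 0.63 and 0.31 for Cldn7. Sex and brightness were not balanced, since 4 of the 5 knockout males but 1 of the 4 knockout females were on dimmer arrays.

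**Figure D4:**
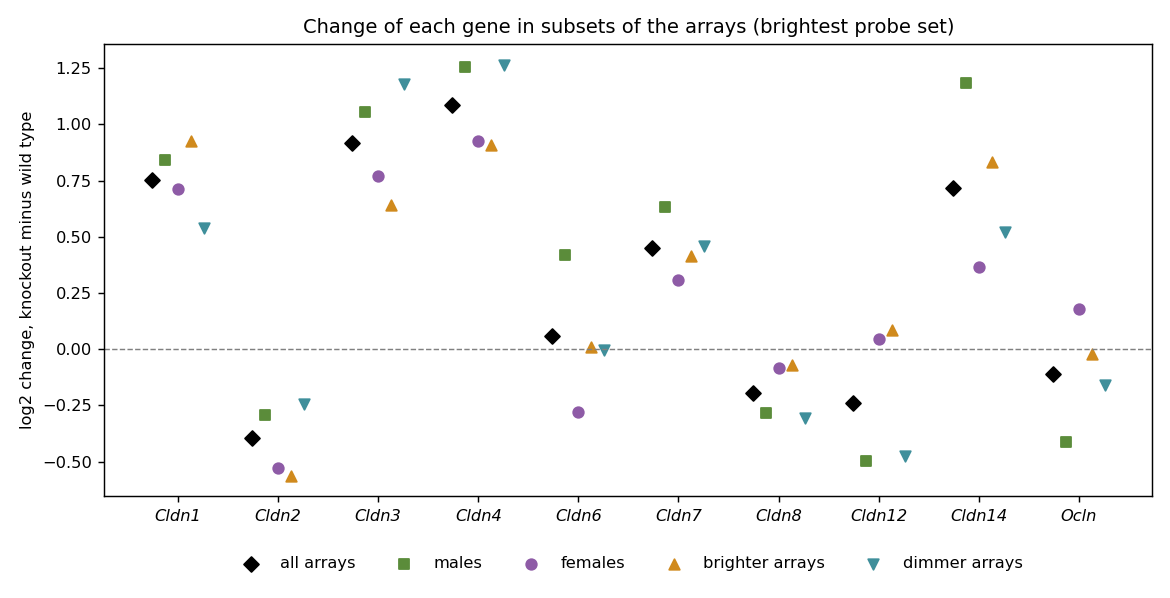
Log2 change, knockout minus wild type, of the brightest probe set of each gene over all arrays, males, females, brighter arrays and dimmer arrays. Cldn1, Cldn3, Cldn4, Cldn7 and Cldn14 lie above 0 and Cldn2 and Cldn8 below 0 in all 5, while Cldn6, Cldn12 and Ocln fall on both sides.

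The other junction genes are given by list, and their counts are to be read against the 8.44% of all genes that rose and the 7.3% that fell. Of 9 other claudins tested, 1 fell and none rose (median -0.10). It was Cldn10, made in the proximal tubule and thick ascending limb (-0.46, adjusted p = 1.85e-04). Of 13 tested genes for other membrane proteins of tight junctions, 4 rose and 1 fell (median -0.02). They were Jam2, a junctional adhesion molecule (0.51), Lsr (0.44) and Ildr1 (0.40), angulins of the junctions where several cells meet, and Igsf5, an immunoglobulin family protein of the junction (0.28), against Ildr2, another angulin (-0.47). Of 30 scaffold and polarity genes, 3 fell and none rose (median -0.06). They were Mpp5, the polarity protein also called Pals1 (-0.35), Pard6b, a partner of atypical protein kinase C (-0.39), and Wnk1, a kinase that regulates salt transport (-0.24).

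Adhesion genes and the enzymes and factors tied to claudins are read against the same shares of all genes. Of 19 adherens junction and desmosome genes, Cdh3 (0.50) and Vcl (0.27), which encode P-cadherin and vinculin, rose and Cdh16 (-0.15), the kidney cadherin gene, fell, with a median of 0.11. Among 7 partners and proteases of the distal nephron, Prss8 (-0.33) and Tmprss2 (-0.27), both membrane serine proteases, fell and none rose. Of 21 epithelial transcription factors tied to claudin genes, 3 rose and 1 fell (median -0.001). Klf5 (0.82), a Krüppel-like factor, Elf3 (0.54), an ETS factor of epithelia, and Snai2 (0.50), a repressor of the Snail family, rose, and Hnf4a (-0.49), a factor of proximal tubule differentiation, fell. The adjusted p of the genes named from these lists lay between 4.67e-06 for Hnf4a and 0.0415 for Igsf5. Several calls did not hold in a further probe set, by limma. These were Klf5 (0.39, adjusted p = 0.197), Snai2 (0.56, 0.104), Vcl (0.29, 0.0609), Pard6b (-0.09, 0.842) and Wnk1 (-0.12, 0.553). Tmprss2 did not pass in any other (adjusted p between 0.135 and 0.644). Jam2, Mpp5, Ildr2 and Hnf4a each passed in at least 1 further probe set and missed in another.

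**Figure D5:**
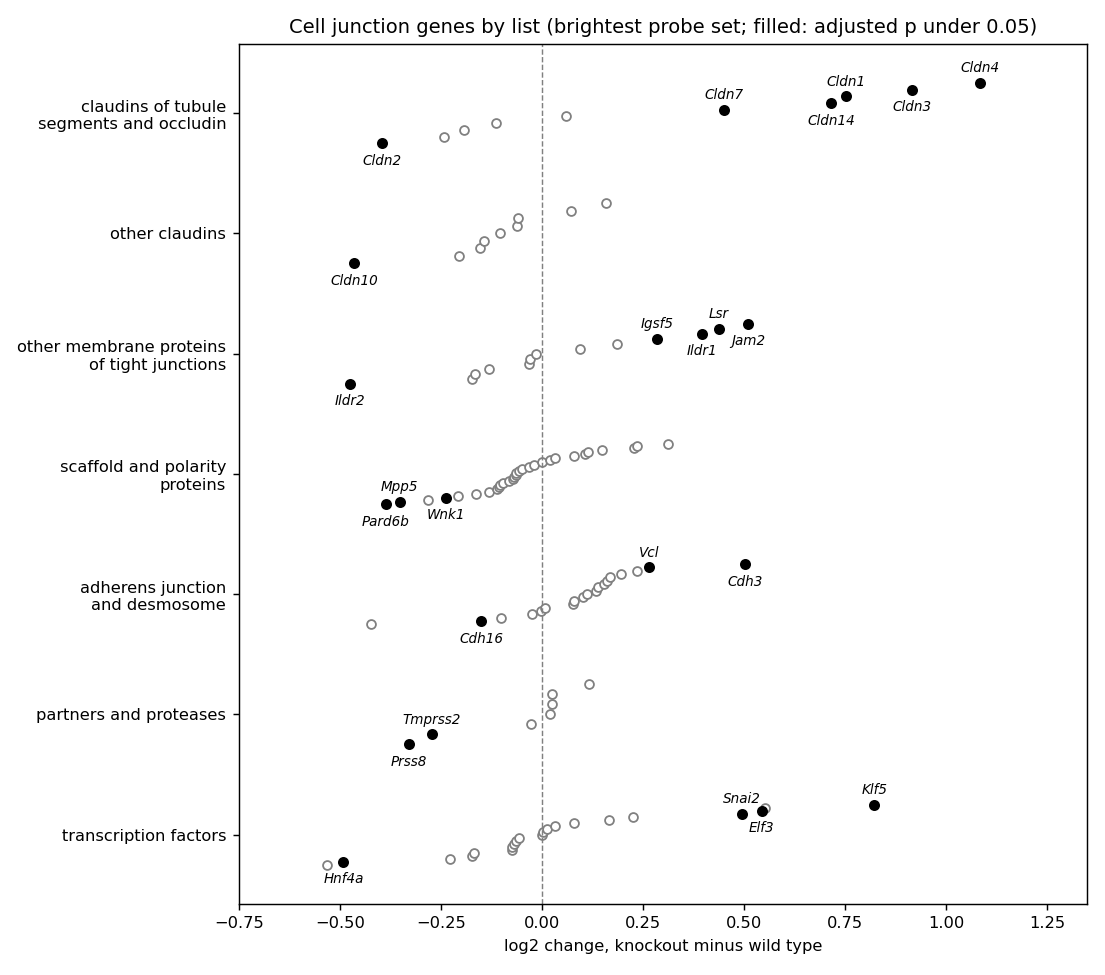
Log2 change, knockout minus wild type, of each tested gene (brightest probe set) in the 10 claudin and occludin genes and in 6 lists of other junction genes, with filled and named points for an adjusted p under 0.05. Of the 10 genes, 5 in the top row are filled to the right of 0, between 0.45 for Cldn7 and 1.09 for Cldn4; the 30 scaffold and polarity genes cluster around 0.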

How the data were processed

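Kidney RNA of 16 pups, 9 knockout and 7 wild type, was hybridised to 1 array each. The authors deposited signal intensity per probe set on a linear scale, and the submitters' processing notes name GCOS 1.3. The summarisation and scaling steps were not given in the sources used here. Intensities were quantile normalized, set to a floor at the 20th percentile (a signal of 6.89, log2 2.78) and log2 transformed, which understates changes of dim genes and cannot show a shift of all mRNA together. Of 45101 probe sets in the deposited table, 27377 were tested, those other than controls above their array's 40th percentile on at least 7 arrays.

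The genotypes were compared by limma (version 3.58.1, R version 4.3.3), using lmFit with a single genotype term and then eBayes with a trended prior variance, with Benjamini-Hochberg adjustment over all tested probe sets. A gene was called by its brightest probe set that names it alone in the platform annotation. Levels summed over a list are signals on the linear scale. Each array is a separate animal per the labels, and the number of animals limits the precision. The fit was tested on simulated data with independent noise for each probe set. That setting leaves out effects shared across an array, such as brightness, so it does not test the calls against them.

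The members and lists were chosen with earlier results of these data known. Text names every member probe set, Aqp11, the called genes of each list (up to 4 by smallest p, or all where at most 5), and the 3 genes most like the largest rise and fall; Lrp2 and Pdzk1 are named under that last rule. The alternatives were other scalings, floors and filters, sex, the first sample number and RNA quality as terms, subsets by sex or brightness, and each array left out. Of the same-numbered pups of both genotypes, 4 of 13 pairs correlated above 0.1 in their deviations (r between -0.139 and 0.287). Pairs of different numbers had r between -0.305 and 0.298. Across genotypes, 7 of the 16 arrays correlated best with an array of their own number. These values do not decide whether same-numbered pups deviate together. The sources used here do not state what the first number stands for, so litters could not be assigned. The numbers were not taken as pairs in the main fit, and a fit with them as a block is given below. Upstream sequences came from RefSeq on GRCm38.p6. Figures were drawn with matplotlib.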

Additional observations from a re-analysis of the deposited data

How the results depend on the processing

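The count of called probe sets was 3195, against 573 with the intensities as deposited, 1838 in males alone, 767 in females alone, 1731 in the brighter arrays alone and 1461 in the dimmer arrays alone. Of the 10 genes, 6 were called, against 3 as deposited and 3 in females alone, where each time Cldn1, Cldn3 and Cldn4 remained. Subsets hold fewer arrays; the cause of the smaller count with deposited intensities was not tested. In 35 of 37 settings the member count stayed within 1.5 times of 6, and between 5 and 6 with any 1 array left out. With the first number as a replicate block, 3919 probe sets and 6 of the 10 genes were called, and 7 of the 16 arrays correlated best with an array of their own number. The largest count, 4452 probe sets and 7 of the 10 genes, came with the Gapdh 3′/5′ ratio as a term. Signs turned for Cldn6 in females alone (-0.28), in the dimmer arrays alone (-0.0054) and with single arrays left out (between -0.0576 and 0.13), for Cldn12 in females alone (0.044) and the brighter arrays alone (0.086), and for Ocln in females alone (0.18), none of them called. Cldn14 was not tested under the filter at the 60th percentile. Its call, at a low signal, was lost in 8 settings, against 4 for Cldn2 and 3 for Cldn7.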

Other observations

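Several claudin genes lie beside another junction gene on the chromosome, in the RefSeq gene order. Cldn1 and Cldn16, Cldn16 being a gene of the thick ascending limb, are adjacent on chromosome 16. Cldn1 rose by 0.75, while Cldn16 had log2 signals averaging 8.94 ± 0.15 (SD, n = 9) in knockout and 8.78 ± 0.12 (SD, n = 7) in wild-type kidneys. Its change of 0.16 missed the threshold (adjusted p = 0.205). Ocln and Marveld2, which encodes tricellulin, are adjacent on chromosome 13, and their changes were -0.11 and -0.03 (adjusted p = 0.673 and 0.885). Cldn6 and Cldn9 are adjacent on chromosome 17, with changes of 0.06 and -0.21 (adjusted p = 0.876 and 0.573). Cldn3 and Cldn4, adjacent on chromosome 5, were both called. Cldn8 lies next to Cldn17 on chromosome 16, and no value for Cldn17 is given here.

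Some junction genes that did not pass by their brightest probe set passed by another. These were chosen after their values were seen. Cxadr, a virus receptor of the junction, changed by 0.52 in one such probe set (adjusted p = 0.00453), the scaffold-bound factor Ybx3 by 0.34 (0.0409), the desmosome genes Dsg2 and Pkp2 by 0.45 (0.0398) and 0.22 (0.0406), and the epithelial transcription factor Ehf by 0.51 (0.0298). These changes were upward in the knockout, by limma. Further probe sets of the same genes did not pass: Cxadr had changes of 0.17 and 0.19 in 2 of them (adjusted p = 0.351 and 0.245), Dsg2 changes between 0.15 and 0.25 in 3 (adjusted p between 0.252 and 0.762), Pkp2 a change of -0.15 (0.471) and Ehf a change of 0.06 (0.828). Over all lists, 103 genes had a further probe set, and none was called in opposite directions by its brightest and another probe set. Junction genes and factors called by their brightest probe set but missed by a further one are named above with their lists.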
